A study of Homo sapiens with 4 samples.

Results

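The tRNA genes of human chromosome 6 were examined for peaks of ETS1 and RUNX1, transcription factors of blood cells, in 6T-CEM, a human line of T-cell acute lymphoblastic leukaemia. Members were chosen by annotation, as genes of biotype tRNA on that chromosome in the RefSeq gene table: 154 genes lie on the assembled chromosome 6, of 429 tRNA genes on chromosomes 1 to 22 and X, and 275 on other chromosomes served for comparison. A further gene listed for chromosome 6, TRA-CGC5-1, carries scaffold coordinates and was left out. Binding was profiled by CUT&Tag, where a transposase tethered to an antibody cuts and tags nearby chromatin for sequencing. Libraries were made with an ETS1 antibody (Santa Cruz; 2 libraries) and with a RUNX1 antibody (Abcam; 2 libraries), from untreated cells as far as the labels say, and each was set against IgG, the antibody control. The labels do not say whether libraries of an antibody came from separate cultures, so the spread between them may be technical. The group itself was selected on how many of its genes had peaks in these same 4 lists, so its occupancy is given as a description, with no test. All intervals are 95% Wilson intervals, and the upper limit given for a count of 0 is 3 counts of the total. Both cover counting error only and treat each gene as independent, although tRNA genes that lie close together can share a peak.

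A tRNA is the adaptor that reads a codon and brings the matching amino acid to the ribosome. Its genes are transcribed by RNA polymerase III from a promoter inside the gene, whose A and B boxes are bound by TFIIIC, and TFIIIC then places TFIIIB just upstream. ETS1 (ETS family) and RUNX1 (which binds DNA together with CBFB) are known chiefly as regulators of genes read by RNA polymerase II. In humans the densest tRNA cluster lies on the short arm of chromosome 6, among replication-dependent histone genes and next to the major histocompatibility complex. In the symbols, the letter after TR is the amino acid (X for the initiator methionine) and the next letters are the anticodon.

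The lists held 6082 and 5625 ETS1 peaks and 25360 and 25001 RUNX1 peaks. At the ends of listed T-cell marker genes, RUNX1 peaks of both libraries were found at 6 of 6 genes and ETS1 peaks at 5, while B-lineage, myeloid and erythroid markers had RUNX1 at 1, 1 and 0 of 4 genes and ETS1 at 0 in each case. Peaks show occupancy, not expression. The median pileup at the summit, recovered from the deposited values, was 54 and 51 with ETS1, and 75 and 71 with RUNX1. Where the IgG expectation was at the lowest value of a library (1.39 to 1.76), the weakest peak in the list had a pileup of 12 or 13. Where IgG is higher, a call needs a larger pileup, so a tRNA gene without a peak may still carry a signal, also one above that height. IgG at places without a peak is not in the lists.

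The promoter table used here holds none of the 154 members. Shown instead are 3 promoter windows of neighbouring genes on chromosome 6 that lay under a peak which also reached a member: that of the histone gene H4C8 beside the initiator tRNA gene TRX-CAT1-2 (chr6:26285485-26285784, minus strand), that of HMGN4, a nucleosome-binding protein gene beside TRR-ACG1-2 and TRV-CAC1-6 (chr6:26538116-26538415, plus strand), and that of the long non-coding RNA gene LOC124901296, which spans TRA-AGC2-1 (chr6:28838974-28839273, minus strand). The summits mostly lay outside these windows, at 26285353 to 26285414 for the H4C8 peak and at 26537685 to 26537720 for the HMGN4 peak. At LOC124901296 the RUNX1 summit was inside in library 1 (28838990) and outside in library 2 (28838898). Most of the sequence shown is thus beside a summit, not at it. The sequences are from RefSeq (GRCh38.p14), run 5′ to 3′ on the gene's strand and cover 250 bases before to 50 bases after the gene's start. Capitals mark the ETS core GGAA, the longer ETS form CCGGAAG and the RUNX form TGNGGT on either strand, so that a GGAA of the other strand reads TTCC.
H4C8: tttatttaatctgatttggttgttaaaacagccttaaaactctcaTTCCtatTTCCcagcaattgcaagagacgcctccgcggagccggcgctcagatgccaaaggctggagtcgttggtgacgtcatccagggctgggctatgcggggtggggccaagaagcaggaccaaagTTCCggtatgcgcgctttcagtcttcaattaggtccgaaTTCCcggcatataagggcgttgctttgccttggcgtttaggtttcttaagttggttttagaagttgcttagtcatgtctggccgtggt
HMGN4: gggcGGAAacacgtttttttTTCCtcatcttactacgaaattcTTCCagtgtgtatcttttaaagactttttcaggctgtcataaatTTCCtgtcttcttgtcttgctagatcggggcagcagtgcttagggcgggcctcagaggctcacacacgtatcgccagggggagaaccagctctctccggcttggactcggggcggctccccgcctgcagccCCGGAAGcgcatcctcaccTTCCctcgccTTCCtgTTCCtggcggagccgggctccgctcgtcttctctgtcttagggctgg
LOC124901296: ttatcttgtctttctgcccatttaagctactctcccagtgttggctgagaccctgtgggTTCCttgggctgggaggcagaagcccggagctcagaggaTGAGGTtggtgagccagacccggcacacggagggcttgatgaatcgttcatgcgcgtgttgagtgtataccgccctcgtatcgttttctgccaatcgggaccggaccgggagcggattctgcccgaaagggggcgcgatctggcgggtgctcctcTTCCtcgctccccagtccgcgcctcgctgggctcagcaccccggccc
GGAA was found 4 times in the H4C8 window, 8 times in that of HMGN4 and 2 times in that of LOC124901296, counting both strands. CCGGAAG, whose letters include a GGAA, occurred 1 time, in the HMGN4 window. TGNGGT occurred 1 time, in the LOC124901296 window. Of all 35116 promoter windows, 95.5% hold GGAA, 10.3% CCGGAAG and 43.2% TGNGGT on either strand, so GGAA in particular sets no window apart.

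Most chromosome 6 tRNA genes had no peak. A gene was counted when a peak reached within 1 kb of it in both libraries of an antibody. This held for 5 of 154 genes with ETS1 (3.25%, 1.39 to 7.37) and for 13 with RUNX1 (8.44%, 5.0 to 13.9), and all 5 genes with ETS1 were among the 13. Such overlap was general: all 64 tRNA genes with ETS1 over all chromosomes had RUNX1 too, as did 3957 of the 4031 protein-coding gene ends with ETS1. Both factors together were at 9.98% of all protein-coding gene ends. For comparison, 14.9% of all tRNA genes and 10.2% of protein-coding gene ends had ETS1 by the same rule, and 29.8% and 26.4% had RUNX1. On other chromosomes, 59 of 275 tRNA genes had ETS1 (21.5%, 17.0 to 26.7) and 115 had RUNX1 (41.8%, 36.1 to 47.7). Single libraries gave nearly the same counts on chromosome 6: 5 and 6 genes for ETS1 and 14 in each RUNX1 library. Counting any peak in any library, 15 of 154 members had one and 139 had none, against shares of 33.8% for all tRNA genes and 28.8% for protein-coding gene ends.

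The difference was large among genes away from coding genes, the class that holds nearly all members. Of the 154, 150 lay more than 1 kb from any end of a protein-coding gene. Among these, ETS1 was present in both libraries at 2 genes (1.33%, 0.366 to 4.73) and RUNX1 at 10 (6.67%, 3.66 to 11.8). Of 224 such genes on other chromosomes, 30 had ETS1 (13.4%, 9.54 to 18.5) and 74 had RUNX1 (33.0%, 27.2 to 39.4), and over all chromosomes together the shares were 8.56% and 22.5%. Per library, RUNX1 reached 11 and 11 of the 150 genes on chromosome 6 and 84 and 75 of the 224 elsewhere, so the gap of 26.4 percentage points exceeded the difference between libraries. Other chromosomes differed among themselves: on chromosome 7, 0 of 21 such genes had either factor, which allows a share of up to 14.3%, and on chromosome 1 there were 0 of 82 with ETS1 (up to 3.66%) and 21 with RUNX1. Chromosome 17 had ETS1 at 14 and RUNX1 at 16 of 23. With every library reduced to its 5611 strongest peaks, RUNX1 was left at 0 of the 150 genes and at 4.02% of those elsewhere. ETS1 stayed at 2 of the 150 and at 13.4% of those elsewhere. The higher RUNX1 counts, and the presence of RUNX1 at every member with ETS1, thus hold for the full, longer RUNX1 lists.

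**Figure D1:**
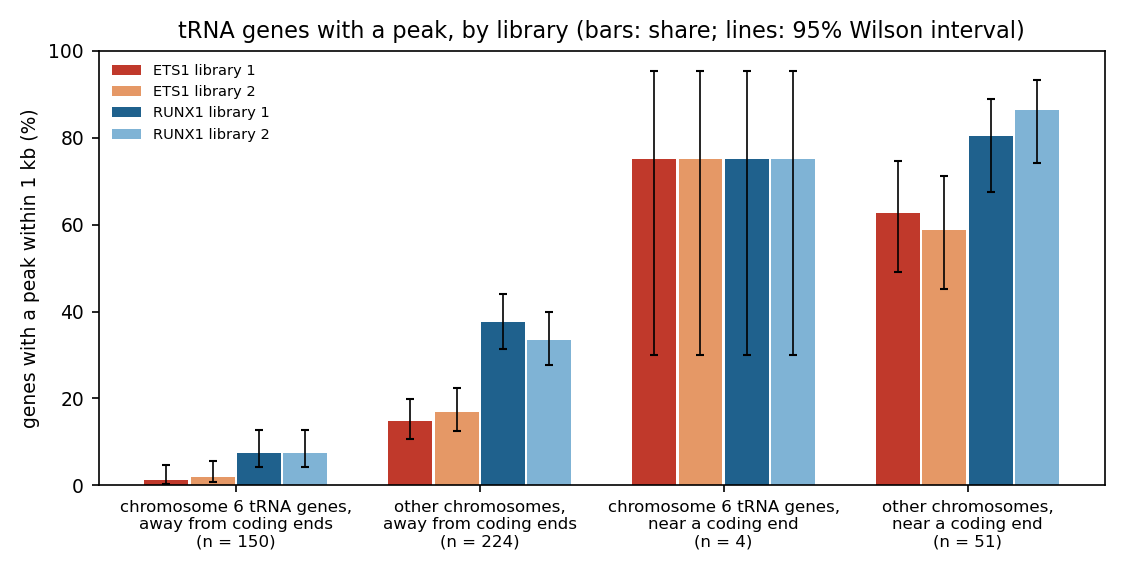
Share of tRNA genes with a peak within 1 kb (vertical axis, percent) in each ETS1 and RUNX1 library, for genes away from and near coding gene ends on chromosome 6 and on other chromosomes; lines are 95% Wilson intervals. Away from coding ends the chromosome 6 bars stand at 1.33% to 7.33% and those of other chromosomes at 14.7% to 37.5%; the 4 chromosome 6 genes near a coding end give an interval from 30.1% to 95.4%.

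Members lay farther from coding genes than other tRNA genes, with a median of 35.9 kb to the nearest coding end against 11.4 kb. Within classes of similar distance the RUNX1 shares were lower on chromosome 6, as were the ETS1 shares up to 50 kb, although intervals overlapped in part. What part distance has in the difference was not tested. At 1 to 10 kb, RUNX1 was at 1 of 15 members (6.67%, 1.19 to 29.8) and at 36 of 80 other genes (45.0%, 34.6 to 55.9). At 10 to 50 kb it was at 7 of 69 members (10.1%, 5.0 to 19.5) and at 32 of 91 others (35.2%, 26.1 to 45.4). Beyond 50 kb it was at 2 of 66 members (3.03%, 0.835 to 10.4) and at 6 of 53 others (11.3%, 5.29 to 22.6), where the intervals overlap. ETS1 was at 1 of 15 members and 23 of 80 others at 1 to 10 kb, and at 1 of 69 and 7 of 91 at 10 to 50 kb, with overlapping intervals in both classes. Beyond 50 kb it was at 0 of 66 members, which allows up to 4.55%, and at 0 of 53 others.

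**Figure D2:**
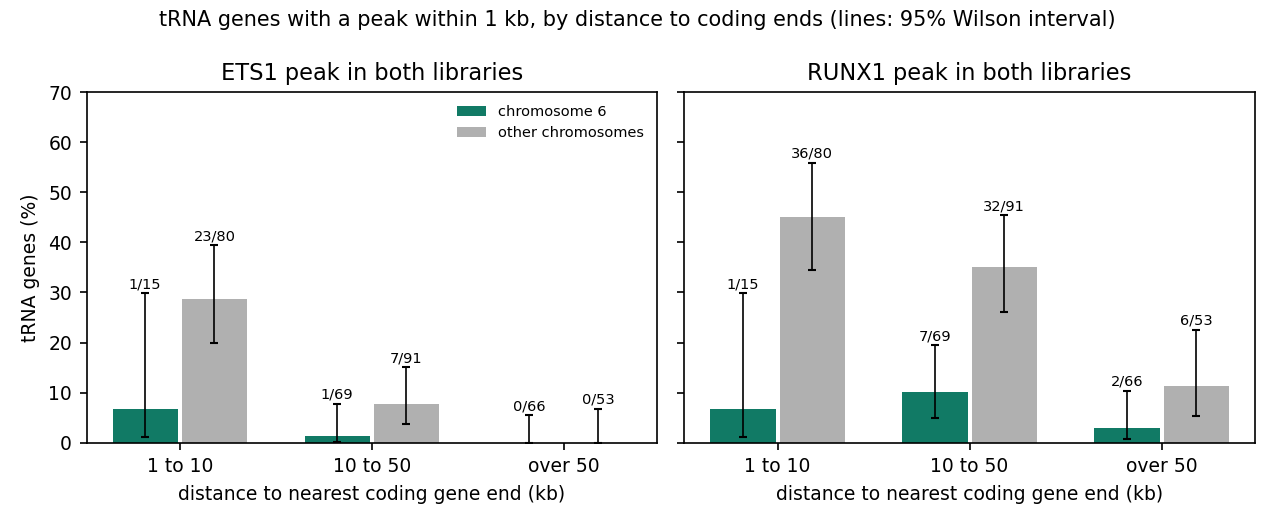
Share of tRNA genes with a peak in both libraries (vertical axis, percent) by distance to the nearest coding gene end (horizontal axis, kb), chromosome 6 in green and other chromosomes in grey, with 95% Wilson intervals and counts above. The RUNX1 intervals of the 2 groups stay apart at 1 to 10 kb (up to 29.8% against 34.6% and more) and at 10 to 50 kb (up to 19.5% against 26.1% and more), and overlap beyond 50 kb. Genes that share a peak are counted separately in these intervals.

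The locus that holds most members was not itself poor in peaks. From TRX-CAT1-2 to TRL-AAG3-1, at 26286526 to 28989083 of chromosome 6 (hg38), 144 tRNA genes lie in 2.70 Mb, and all 15 members with a peak are among them. The locus held 34 and 27 ETS1 summits (12.6 and 9.99 per Mb, against 1.76 and 1.66 per Mb over the chromosome up to its last gene). RUNX1 had 51 and 49 summits there (18.9 and 18.1 per Mb, against 6.35 and 6.24). These peaks lay mostly elsewhere than at tRNA genes: 3 of the 34 and 4 of the 27 ETS1 peaks, and 13 of the 51 and 12 of the 49 RUNX1 peaks, reached within 1 kb of one. Ends of protein-coding genes took 20 and 20 of the ETS1 summits and 25 and 25 of the RUNX1 summits. Histone genes alone took 15 or 16 in each library.

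Interleaved with the tRNA genes, histone genes gave the opposite picture. Of the 144 tRNA genes in the locus, 5 had ETS1 and 13 RUNX1, while all 21 histone coding genes in the same span had both factors by the same window. Over chromosome 6, 49 of 55 histone genes had ETS1 (89.1%, 78.2 to 94.9) and 48 had RUNX1. Histone genes stand in tight groups and share peaks, so these counts are not independent.

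**Figure D3:**
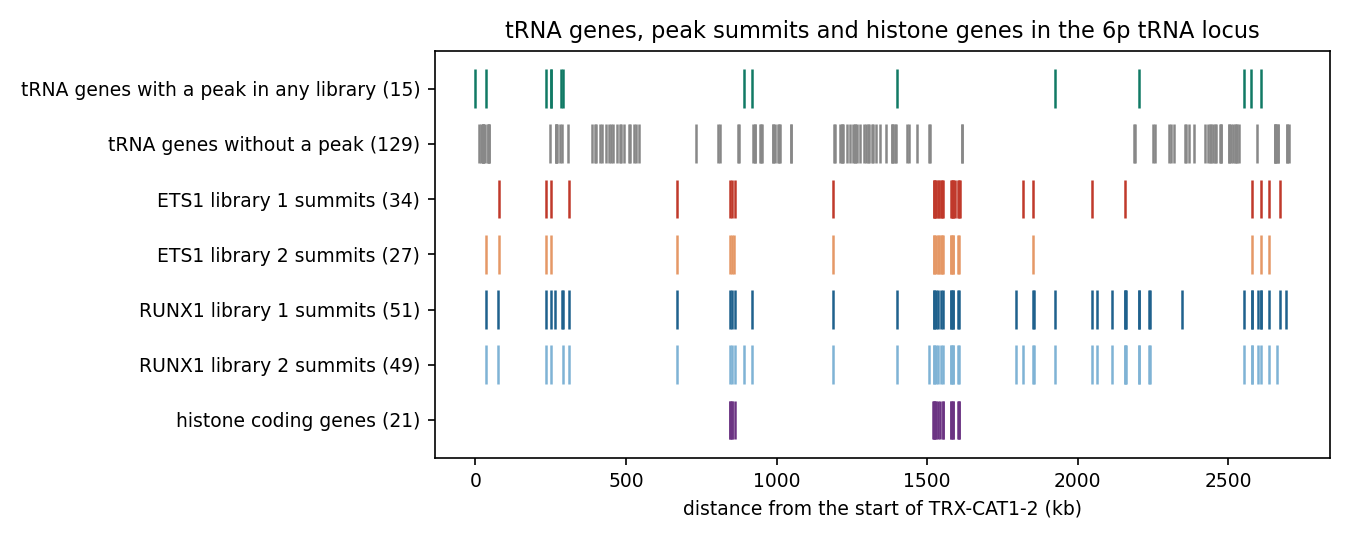
Positions of tRNA genes (with and without a peak), peak summits of each library and histone coding genes, as distance in kb from the start of TRX-CAT1-2; each vertical line is 1 gene or summit, with the number per row in brackets. The 21 histone genes sit under dense groups of summits in all 4 libraries, while long stretches of the 129 tRNA genes without a peak hold few summits.

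Members without a peak came in long runs. With 139 of 154 members lacking one, some long runs must occur, and their length was not tested. The longest run of neighbouring members without a peak in any library held 41 genes over 475 kb, from TRS-CGA2-1 to TRT-AGT2-2. Another held 27 genes over 286 kb, from TRI-TAT3-1 to TRF-GAA4-1, and the next 24 genes over 567 kb, from TRY-GTA6-1 to TRT-AGT6-1. The last run contains 18 tRNA genes, with alanine, methionine and isoleucine among them, from TRA-AGC14-1 to TRA-AGC14-2 (155 kb, at 26673362 to 26828299). Their arrangement is mirrored: read from either end, the 17 start-to-start distances differ by a median of 7 bp and at most 1789 bp, and 16 of the 18 anticodons match. No peak of any library lay in this block, and the nearest was 76190 and 127787 bp away for ETS1 and 76132 and 76134 bp for RUNX1. How reads from such near-copies were mapped is not stated by the labels, and its part in the result was not tested. Outside the locus, 10 members remain, among them 6 at 57800211 to 57856473, and none had a peak in any library.

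The distance to the nearest peak shows the same contrast beyond the 1 kb window. For the 150 members away from coding ends, the median distance was 32.0 and 37.5 kb to a RUNX1 peak and 78.1 and 86.8 kb to an ETS1 peak. For the 224 genes on other chromosomes it was 6.29 and 8.70 kb to RUNX1 and 51.7 and 47.6 kb to ETS1. RUNX1 lay within 10 kb of 41 members in each library (27.3%), against 57.6% and 54.9% of the others. Among these genes away from coding ends, the farthest ETS1 distances were 1588 and 2238 kb on chromosome 6, against 5976 and 6114 kb on other chromosomes. At the edge of the 1 kb window, TRS-GCT5-1 lay inside, at 614 and 606 bp from a RUNX1 peak. TRQ-CTG6-1, a glutamine tRNA gene, lay just outside at 1078 bp in RUNX1 library 2 and was 15310 bp from a peak in library 1.

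**Figure D4:**
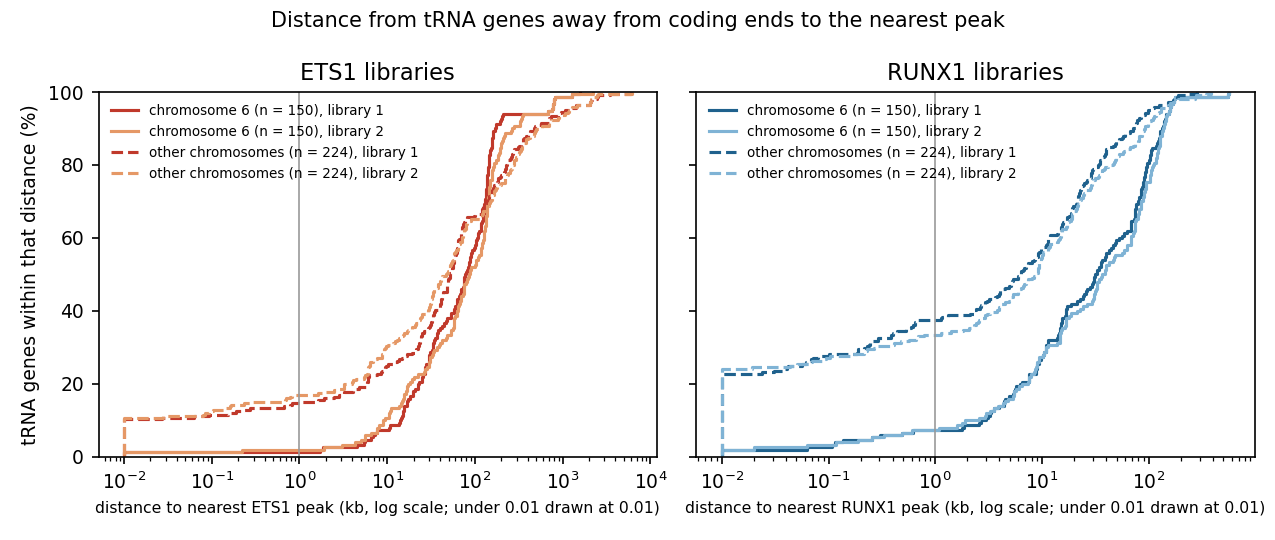
Cumulative share of tRNA genes away from coding ends (vertical axis, percent) against the distance to the nearest ETS1 or RUNX1 peak (kb, log scale), solid for chromosome 6 and dashed for other chromosomes, with 1 line per library and the 1 kb window as a grey line. The RUNX1 lines of chromosome 6 reach 27.3% at 10 kb, against 54.9% to 57.6% for other chromosomes, whereas the ETS1 lines cross at long distances.

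Near coding genes, where 29 of 51 tRNA genes on other chromosomes had both factors (56.9%), 3 of 4 members carried both factors in both libraries. The highest folds over IgG were at TRX-CAT1-2, an initiator methionine gene (26286526 to 26286597), at 54.4 and 42.6 for ETS1 and 32.1 and 38.0 for RUNX1 (means 48.5 ± 8.34 and 35.1 ± 4.17, SD, n = 2 each). This is the H4C8 peak: the gene is 992 bp from the end of H4C8, and the summits lay 1147.5 to 1208.5 bp from its centre. The IgG expectation there was 1.71 to 2.05, with 1.25% to 1.76% of the peaks of a library lower, and the pileup was 148 and 129 for ETS1 and 89 and 102 for RUNX1. TRR-ACG1-2, an arginine gene, and TRV-CAC1-6, a valine gene next to it, shared a peak of 6.03 and 8.36-fold ETS1 and 7.41 and 7.57-fold RUNX1, beside HMGN4. Its summits lay 151 to 186 bp from the centre of TRR-ACG1-2, between the tRNA genes, and 370 to 405 bp from that of TRV-CAC1-6. The fourth, the glutamate gene TRE-CTC1-7, lies 797 bp from NCOA7, a nuclear receptor coactivator gene, and had no peak. The next gene beyond the limit of 1 kb from a coding end, TRY-GTA6-1 at 1991 bp from ABT1, had none either.

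Away from coding genes, ETS1 was present in both libraries at 2 members, both leucine tRNA genes. TRL-CAG1-7 (26521208 to 26521290) had 13.6 and 12.9-fold ETS1, higher than at 95.5% and 94.5% of the peaks in those libraries, and 12.6 and 12.2-fold RUNX1. The peaks overlapped the gene, and the summits lay 236 to 293 bp from its centre. The gene lies inside the long non-coding gene LOC107986583, with HCG11, another non-coding gene, also within 1 kb, and 10783 bp from BTN1A1, the nearest coding gene. TRL-CAA1-1 (28896223 to 28896328), next to the non-coding gene HCG14 and 6674 bp from TRIM27, had weaker ETS1 of 4.23 and 6.11-fold. Its RUNX1 folds of 8.82 and 5.69 belong to separate peaks, that of library 1 beside the gene and that of library 2 over it; the peak of library 1 at the place of the library 2 peak had 5.94. No member away from coding ends had ETS1 without RUNX1, and all 30 such genes with ETS1 on other chromosomes had RUNX1 as well.

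RUNX1 without ETS1 in both ETS1 libraries was found at 8 further members away from coding genes. The highest RUNX1 fold among them was at the valine gene TRV-CAC6-1 (27206088 to 27206160), at 21.4 and 17.97. Its summit lay 1 bp from the centre of the tRNA gene in both libraries, and it was the member with a RUNX1 summit within 100 bp of the centre. No other listed gene lay within 1 kb of it and the nearest coding gene, the thymic serine protease gene PRSS16, was 41541 bp away. The pileup was 58 and 47 over the lowest IgG expectations, 1.76 and 1.67, and the nearest ETS1 peak lay 58508 bp away in both libraries.

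TRR-TCG2-1, an arginine gene beside the histone pseudogene H3C9P, followed in fold with 14.8 and 17.2-fold RUNX1, with summits 558 and 557 bp from its centre. The RUNX1 pileup there was 40 and 45, over low IgG expectations of 1.76 and 1.67. ETS1 had a weak peak there in library 2 (4.62-fold, pileup 16) and none in library 1. The threonine gene TRT-CGT1-1 had 11.97 and 10.9-fold and the serine gene TRS-GCT5-1 9.86 and 11.2-fold RUNX1, in both cases with summits about 1 kb from the centre (956.5 and 1010.5 bp; 1015.5 and 1014.5 bp). Their pileups, 77 and 74 at TRT-CGT1-1 and 70 and 76 at TRS-GCT5-1, were above those at TRR-TCG2-1. The alanine gene TRA-AGC2-1, inside LOC124901296, had 6.14 and 12.2-fold, the widest difference between libraries. The tyrosine gene TRY-GTA3-1 had 8.33 and 9.73-fold, with pileups of 22 and 25. TRA-AGC2-2, beside LINC01623, had 7.94 and 7.25-fold and the isoleucine gene TRI-AAT2-1 5.83 and 8.77-fold. A peak of a single library was found at TRA-AGC11-1 (6.19-fold, RUNX1 library 1) and at TRI-AAT5-2 (5.85-fold, RUNX1 library 2).

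**Figure D5:**
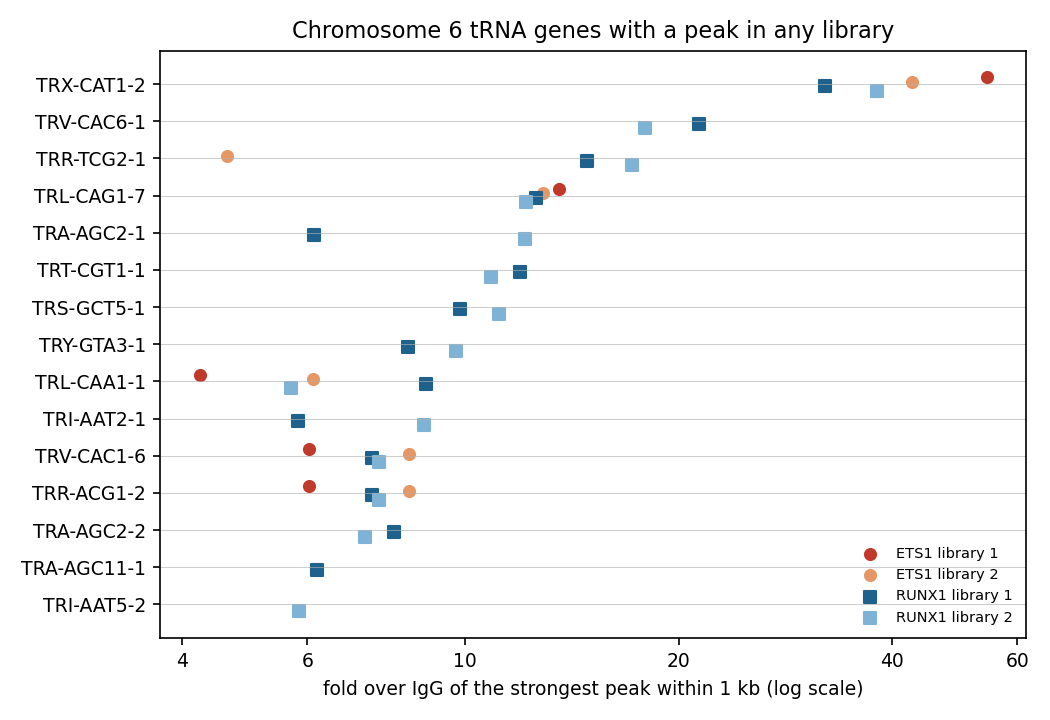
Fold over IgG (horizontal axis, log scale) of the strongest peak within 1 kb of each of the 15 members with a peak, by library; circles are ETS1 and squares RUNX1, and a missing symbol means no peak. TRX-CAT1-2, beside H4C8, lies at 32.1 to 54.4, TRV-CAC6-1 follows with RUNX1 alone at 21.4 and 17.97, and the remaining members lie at 17.2 or below.

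These peaks were low in pileup and lower still in IgG. At the 11 members away from coding ends with a RUNX1 peak in a given library, the median fold was 8.82 and 10.9, against 7.12 and 8.23 at the 84 and 75 such genes on other chromosomes. The median pileup was 40 and 47 against 83 and 82, and the median IgG expectation 2.40 and 3.28 against 10.7 and 9.83. Folds on chromosome 6 are thus taken over a smaller control, and a fold here stands for fewer reads. Over all RUNX1 peaks the medians were 75 and 71 for pileup and 8.96 and 8.52 for IgG.

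RUNX1 peaks mostly flanked the tRNA gene rather than covering it. Among the 11 members away from coding ends with a RUNX1 peak in a given library, the peak overlapped the gene itself at 3 in each library, and the median distance from summit to gene centre was 510.5 and 543.5 bp. On other chromosomes, RUNX1 peaks overlapped such a gene at 51 of 84 and 53 of 75, with a median summit distance of 363 and 327.5 bp. ETS1 peaks, of which there were few, overlapped 4 of 5 and 4 of 6 of all members that had one, with medians of 375 and 303.5 bp. Requiring an overlap with the gene left RUNX1 at 3 of the 150 members away from coding ends (TRL-CAG1-7, TRV-CAC6-1 and TRL-CAA1-1) and at 22.3% of such genes elsewhere.

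Peaks were also counted by the non-coding neighbourhood. Of the members away from coding ends, 23 lay within 1 kb of an end of a long non-coding RNA gene; 2 of these had ETS1 and 5 had RUNX1 (21.7%, 9.66 to 41.9). Of the other 127, ETS1 was at 0, which allows up to 2.36%, and RUNX1 at 5 (3.94%, 1.69 to 8.89). On other chromosomes RUNX1 was at 9 of 21 (42.9%) and 65 of 203 (32.0%). Of the 28 members with another tRNA gene within 1 kb, 2 had both factors, TRR-ACG1-2 and TRV-CAC1-6 beside HMGN4. Of the 26 among them away from coding ends, 0 had either factor, but this allows up to 11.5%, above the 1.33% with ETS1 and 6.67% with RUNX1 of all members away from coding ends. On other chromosomes, 19 of 80 such genes had ETS1 and 36 had RUNX1. By annotation, 3 of the 154 members lay inside the span of a coding gene, 27 inside that of a long non-coding gene alone and 124 outside both.

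Peaks were spread thinly over the amino acids. Counting the initiator apart, 19 kinds of tRNA are encoded by the members, and 9 of them had any member with a peak. Alanine has the most members, 30, of which 2 had RUNX1 and 0 ETS1, against 3 and 2 of 7 alanine genes elsewhere. Serine had RUNX1 at 1 of 17 members, isoleucine at 1 of 15, and glutamine at 0 of 11, against 7 of 9, 4 of 8 and 3 of 8 on other chromosomes. Leucine and arginine each had RUNX1 at 2 of 11 members, against 9 of 21 and 13 of 15. The 10 kinds without a peak, among them methionine (8 members), phenylalanine and lysine (6 each), hold 42 members in all. Of the 6 initiator genes, 1 had peaks, TRX-CAT1-2.

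The highest fold of a member away from coding ends was close to that of the strongest such genes elsewhere for ETS1, and below all 5 named genes elsewhere for RUNX1. For ETS1, TRL-CAG1-7 had 13.2 ± 0.481 (SD, n = 2), against 13.4 ± 0.745 at a cluster on chromosome 17 where TRW-CCA1-1, TRG-TCC3-1, TRD-GTC2-11 and TRP-CGG1-3 share a peak near CTC1, a difference within the spread between libraries. The next gene on other chromosomes, TRK-CTT2-3 on chromosome 5 near TRIM41, had 8.99 ± 1.82. For RUNX1, TRV-CAC6-1 had 19.7 ± 2.40, against 31.7 ± 1.61 at TRP-AGG2-8, inside OR1F1 on chromosome 16. The summits lay 1 bp from the centre of TRV-CAC6-1 but 1693.5 bp from that of TRP-AGG2-8. TRK-CTT2-3 had 29.2 ± 16.3, with the summit of its peak at another place in each library. On chromosome 16, TRK-CTT3-1 and TRP-TGG3-3 shared a peak (24.99 ± 1.74), and TRM-CAT6-1 inside FBXO31 had 21.2 ± 0.229. RUNX1 summits lay 1379 bp from the centre of TRK-CTT3-1, 137.5 bp from that of TRP-TGG3-3, and 184 and 185 bp from that of TRM-CAT6-1.

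Like protein-coding genes in general, the genes that make and use tRNA were occupied more often than the tRNA genes of chromosome 6. Among 18 genes of RNA polymerase III subunits, 7 had ETS1 and 14 RUNX1 at an end in both libraries. Among 17 genes of its initiation factors and regulators the counts were 4 and 11, and among 21 cytosolic aminoacyl-tRNA synthetase genes 7 and 14. Of all protein-coding genes, 19% had ETS1 and 47% RUNX1 at an end. POLR3K, a small subunit of the enzyme, had both factors (ETS1 10.1 ± 0.190, RUNX1 24.6 ± 0.0244, SD, n = 2 each). SNAPC3, a subunit of the factor that binds small nuclear RNA promoters, had 44.7 ± 3.55-fold RUNX1 without ETS1. MAF1, the repressor of RNA polymerase III, had both (9.54 ± 0.117 and 13.0 ± 3.52), as did VARS1, the valine synthetase gene on chromosome 6 (6.07 ± 0.634 and 11.8 ± 0.665). POLR3A, the largest subunit, and TBP and GTF3C6, both on chromosome 6, had neither.

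Other small genes read by RNA polymerase III had ETS1 at 6 (30%) and RUNX1 at 10 (50%) of 20. The shares were 21.5% and 41.8% for tRNA genes on other chromosomes, and 19% and 47% for protein-coding genes at an end. These small genes were not split by distance to coding gene ends. RN7SK, the regulator of transcription elongation and the member of this list on chromosome 6, had 8.17 and 8.82-fold RUNX1 and an ETS1 peak of 3.22-fold in library 1 alone. RMRP (ETS1 4.8 ± 0.554, RUNX1 12.3 ± 1.13) and RPPH1 (6.29 ± 0.234 and 12.9 ± 0.174), the RNA parts of related nucleases that process rRNA and tRNA precursors, had both. The 4 vault RNA genes had no peak, and of the 4 Y RNA genes RNY5 had a RUNX1 peak in 1 library.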

How the data were processed

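Per the submitters' processing notes, bcl2fastq 2.17, Bowtie2 and MACS3 3.0.0a6 were used with build hg38, and per the labels attached to the lists peaks were called in each library separately against IgG. Which reads were kept after mapping, and the call threshold, are not stated by the labels. For each peak, the deposited lists hold the authors' ratio to IgG (the fold), −log10 p and −log10 q. The deposited score column follows −log10 q and was not used. Depth is not in the lists. Pileup and IgG expectation were solved from the fold, read as their ratio with 1 added to each, and from a Poisson p, to a whole-number pileup. This succeeded for 100% of peaks, and 100% of 5000 planted pileups per library were recovered in simulated data.

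Peaks on chromosomes 1 to 22 and X were matched to RefSeq genes (GRCh38.p14, a patch release of the hg38 build) with Python 3.11.15, pandas 2.3.3 and scipy 1.17.1. Of 465 tRNA genes listed, 22 mitochondrial genes and 14 with scaffold coordinates were left out. The table gives no strand, so distances run to either end of a gene. Where several peaks lay within 1000 bp of a gene, fold, pileup and IgG are those of the peak with the highest fold, the summit distance is to the closest summit, and an overlap is with any of them. For coding genes the 1000 bp window was set around each end, for tRNA and histone genes around the gene. The members and lists were chosen with earlier results of these data known. Named were the 10 members away from coding ends with the highest mean fold of each factor, the 5 highest of each near coding ends and of each on other chromosomes, those at the limits, and listed genes. Members with a peak in 1 library and the runs without a peak were named after their values were seen. Alternatives were other windows, thresholds, peak numbers and units, and leaving out each library.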

Additional observations from a re-analysis of the deposited data

How the results depend on the processing

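Under every alternative the share of tRNA genes away from coding ends with a peak stayed lower on chromosome 6 than on other chromosomes. The difference for ETS1, -12.1 percentage points, became -10.7 with a window of 500 bp, -6.26 with a peak over the gene itself, -6.03 with −log10 q of at least 20, -5.51 beyond 5000 bp from coding ends and -7.78 with tRNA genes within 1000 bp of each other counted once. It was -15.0 to -13.4 with 1 library left out. For RUNX1, -26.4 became -20.3 with a peak over the gene, -21.5 with the summit in the window, -23.2 with −log10 q of at least 20, -4.02 with equal numbers of peaks, -20.1 beyond 5000 bp and -22.1 with neighbours counted once, and -30.2 to -26.1 with 1 library left out. The stricter rules keep fewer peaks by construction; the cause of the size of each change was not tested.

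The count of members with RUNX1, 13, fell to 5 with a peak over the gene and to 1 with equal numbers of peaks. Away from coding ends, the RUNX1 count of 10 became 3 with a peak over the gene and 0 with equal numbers of peaks. With −log10 q of at least 20 it became 6, and the ETS1 count of 2 became 1. With equal numbers of peaks ETS1 stayed at 5 members, and at 2 away from coding ends, above RUNX1. The median RUNX1 fold away from coding ends, 9.85, was 12.4 with a peak over the gene. The median distance of summit to gene centre, 339 bp for ETS1 and 495 bp for RUNX1, was 285.5 and 357 bp with summits within 500 bp. No paired analysis was possible because the results come from no test. The 2 libraries per antibody, the unknown mapping filters and peaks as the sole readout limit what an absent peak means.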
